A study of Caenorhabditis elegans with 6 samples.

Results

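The binding sites of PHA-4 on chromosome II of *Caenorhabditis elegans* are described here from chromatin immunoprecipitation and sequencing (ChIP-seq) of L4 larvae. They are all peaks on chromosome II in the series-level peak list, 1884 of 12404 peaks in the genome. The lists of the 3 ChIP replicates hold 818, 464 and 317 peaks on this chromosome for replicates 1, 2 and 3, of 5320, 2802 and 1900 in all, and serve as replicate support. A series-level peak was called supported by a replicate when a peak of that replicate overlapped it by at least 1 bp. All positions are in build WS220.

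The worms were of strain OP37, whose genotype combines the mutation unc-119(ed3) on chromosome III with the transgene wgIs37. This transgene holds the rescuing unc-119(+) together with the tagged gene pha-4::TY1::EGFP::3xFLAG. All 6 samples share this genotype, growth at 20 °C and crosslinking in 2% formaldehyde. They form 3 ChIP libraries, precipitated with an antibody against GFP, and 3 input libraries of total chromatin, whose values were not analysed here. The transgene was introduced by biolistic transformation, and the genotype lists no mutation of the worm's own pha-4 gene. The titles carry the word male and the recorded sex is hermaphrodite, a conflict that was not resolved. Whole larvae were used, so a weak peak cannot be assigned to fewer bound cells or to less binding per cell. Separate cultures are not mentioned in the labels, so the p-values measure only the spread between these samples, which may be technical.

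PHA-4 is the FoxA-type forkhead factor of the worm. It specifies the cells of the pharynx and stays on as that organ differentiates, where it binds regulatory DNA of a large share of pharyngeal genes, and it is also active in the gut and the somatic gonad. FoxA factors of other animals can bind DNA that is packed in nucleosomes. The autosomes of this worm have gene-dense centres and arms richer in repeats. Gene names are not assigned to the peaks below, because the gene table used here refers to another build.

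Chromosome II carried peaks at close to the genome's average density, slightly above that of the other 5 chromosomes pooled in each replicate. It was not the densest chromosome: III had 73.7, 39.8 and 28.2 peaks per Mb in replicates 1, 2 and 3, and IV had 55.7, 33.1 and 21 per Mb. Replicate 1 had 53.6 peaks per Mb on chromosome II and 53 per Mb on the other 5 chromosomes together. In replicate 2 the values were 30.4 and 27.5 per Mb, and in replicate 3 they were 20.8 and 18.6 per Mb. Density on chromosome II was thus 1.01, 1.10 and 1.11 times that elsewhere, a mean log2 ratio of 0.10 ± 0.078 (SD, n = 3). The exact two-sided sign-flip permutation test over the replicates gave p = 0.25 (adjusted p = 0.33 over 4 tests), and 0.25 is the smallest p that 3 replicates allow. Chromosome I held 17.7% of the peaks of replicate 1 but 11.3 and 11.5% of those of replicates 2 and 3, and with it left out of the comparison the ratios were 1.05, 1.05 and 1.06. Among the better-ranked 50% of peaks the log2 ratios were 0.024, 0.20 and -0.069, a mean of 0.052 with the sign reversed in replicate 3 (exact two-sided sign-flip permutation test, p = 0.75). The series-level list had 123.4 peaks per Mb on chromosome II and 123.8 elsewhere, or 15.2% of its peaks (95% interval 14.6 to 15.8%) on 15.2% of the span.

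The peaks were unevenly placed along the chromosome. They were sparse over the first 4 Mb, densest between 5 and 12 Mb, and of intermediate density in the 3 bins that follow. In the series-level list the densest bins of 1 Mb were that from 9000001 to 10000000, with 175 peaks, and that from 5000001 to 6000000, with 159. The sparsest were those from 2000001 to 3000000, with 68 peaks, and from 1000001 to 2000000, with 74. The incomplete last bin, of 0.273 Mb, had 154 peaks per Mb. All 3 replicates rose into the bin from 5000001 to 6000000. Between the bins ending at 5000000 and at 6000000 the count went from 48 to 75 in replicate 1, from 23 to 50 in replicate 2 and from 10 to 39 in replicate 3. Replicates 1 and 2 had already risen at the bin before, from 29 to 48 and from 15 to 23. Replicate 3 had not, going from 11 to 10. This step was singled out after the values were seen. Across the 16 bins, Spearman's rho between replicate densities was 0.87 for replicates 1 and 2, 0.85 for 1 and 3, and 0.91 for 2 and 3. These bins share the chromosome and are not independent, so no p is given. All 3 replicates dipped in the bin from 7000001 to 8000000, and replicate 3 did so most, with 13 peaks against 26 in each bin beside it. Replicate 2 had 31 peaks there, against 42 and 40, and replicate 1 had 63, against 70 and 68. The series-level list had 149, against 146 and 149. This bin was chosen after its values were seen.

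**Figure D1:**
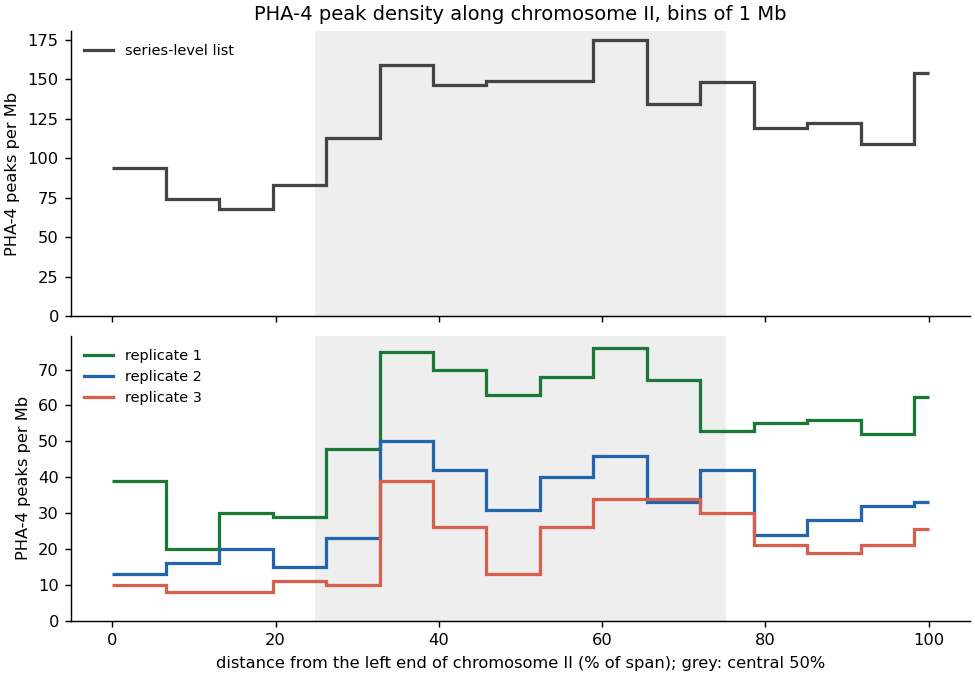
PHA-4 peaks per Mb in bins of 1 Mb along chromosome II, with the series-level list above and the 3 replicates below; the horizontal axis is the distance from the left end in percent of the span, and grey marks the central 50%. All 4 lists are low on the left, and the count of replicate 3 goes from 10 to 39 peaks where the dense part begins.

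The central 50% of chromosome II held most of its peaks. Its share was 61.2% in replicate 1, 62.1% in replicate 2 and 61.5% in replicate 3, or 61.6 ± 0.42% (SD, n = 3), and 58.3% in the series-level list. The excess over 50% had the same direction in 3 of 3 replicates (exact two-sided sign-flip permutation test, p = 0.25, adjusted p = 0.33, again at the limit of the design). Chromosome V, at 63.7, 64.8 and 64.3% in replicates 1, 2 and 3, was more central than chromosome II, and chromosome X, at 52.4, 49.2 and 50.9%, was less so. The other autosomes also exceeded 50% in every replicate, so the excess was not particular to chromosome II. Their shares were 52.4, 60.4 and 63.9% on I, 56.0, 57.9 and 60.1% on III, and 59.9, 57.5 and 60.5% on IV.

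The outer parts of chromosome II differed from each other. The left outer 25% of the span held 108, 57 and 30 peaks in replicates 1, 2 and 3, and the right outer 25% held 209, 119 and 92. The right end therefore had 1.94, 2.09 and 3.07 times as many peaks as the left end. As shares of the chromosome's peaks, the left end held 11.7 ± 1.95% and the right end 26.7 ± 1.98% (SD, n = 3). On the other 5 chromosomes the mean share of the left end lay between 17.1 and 23.1%, and the ratio of right to left between 0.531 and 1.37 in any replicate. The right share alone did not set chromosome II apart, since that of chromosome X was 27.0 ± 2.06% (SD, n = 3). The difference between right and left shares was 15.1 ± 3.90 percentage points on chromosome II and -0.088 ± 1.54 in the mean of the other 5 (SD, n = 3). The contrast was larger on chromosome II in 3 of 3 replicates, by 15.2 ± 3.13 points (exact two-sided sign-flip permutation test, p = 0.25, the smallest possible). It was singled out after the values were seen, so the test is a description. Without chromosome I among the others the difference was 13.9 ± 4.44 points.

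**Figure D2:**
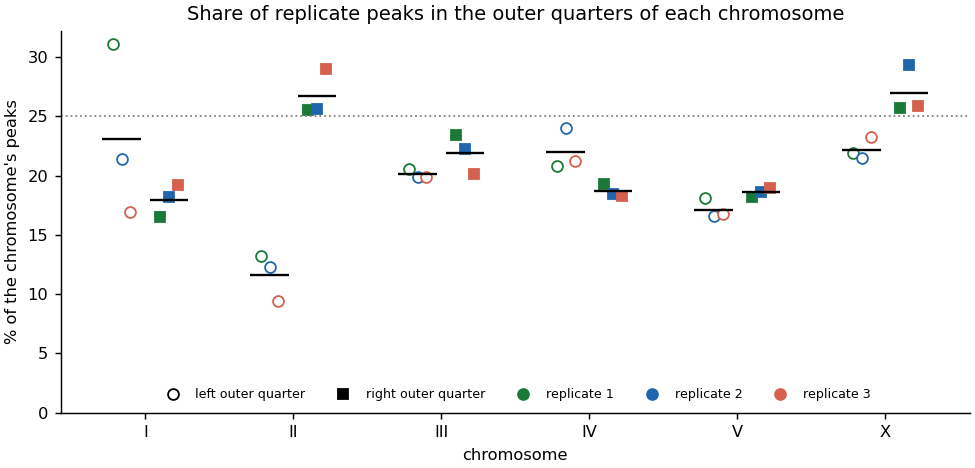
Share of each chromosome's replicate peaks in its left outer 25% (open circles) and right outer 25% (filled squares), coloured by replicate, with the mean of the 3 replicates as a black line and the share of an even spread as a dotted line. On chromosome II the left shares, with a mean of 11.7%, lie apart from the right shares, with a mean of 26.7%, in all 3 replicates.

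Strong peaks showed the same lopsided placement. The best 5% of the whole series-level list, by the authors' significance value, are called strong here. Of the 1884 peaks on chromosome II, 84 were strong, or 4.46%, beside a background of 5.0% over all chromosomes. Only 5 of the 84 lay in the left outer 25% of the span, against 58 in the central 50% and 21 in the right outer 25%. Per Mb of these parts that is 1.31, 7.60 and 5.50 strong peaks. The bin from 5000001 to 6000000 held 15 strong peaks, the most of any bin, and the bin from 10000001 to 11000000 held 11. Among the best 100 peaks of the genome, 17 were on chromosome II (95% interval 10.2 to 25.8%), and among the best 1000 there were 143 (14.3%, 12.2 to 16.6%).

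Peaks on chromosome II were similar in width to those elsewhere. For replicates 1, 2 and 3 their median width was 365, 449.5 and 435 bp (mean 416.5 ± 45.2, SD, n = 3), against 377, 443 and 464 bp on the other chromosomes. The mean log2 ratio was -0.040 ± 0.057 and its sign differed between replicates (exact two-sided sign-flip permutation test, p = 0.50, adjusted p = 0.50). In the series-level list the median was 331 bp, the middle 50% of peaks spanned 193 to 526 bp, and the widest peak was 7295 bp. Peaks covered 5.34% of the chromosome in that list and 2.46, 1.71 and 1.09% of it in replicates 1, 2 and 3. Wider peaks had better ranks, with a Spearman's rho of width and rank of -0.73 over the 1884 peaks, a description without a p. Peaks of at least 1000 bp numbered 117 (6.21%, beside 6.68% over all chromosomes), and 94 of them were supported by at least 2 replicates. At the other extreme, 71 peaks (3.77%, beside 3.76% over all chromosomes) were under 20 bp wide. Of these, 64 overlapped no replicate peak and 0 overlapped peaks of at least 2. A wide peak meets an overlap of 1 bp more easily than a narrow one, so these counts of support are not separate from width. The series-level list had 77 peaks of 1200 bp or more on chromosome II, of which 67 were supported by at least 2 replicates. Support by width class is not given here for the other chromosomes, so these counts only describe chromosome II. No gap between neighbouring peaks on chromosome II was shorter than 202 bp in the series-level list. This floor was not particular to the chromosome. Over all chromosomes the shortest gap was 201 bp in that list and 202, 201 and 201 bp in replicates 1, 2 and 3.

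Replicate support on chromosome II was close to that of the genome. Of its 1884 peaks, 906 (48.1%, 95% interval 45.8 to 50.4%) were overlapped by at least 1 replicate, beside a background of 46.3% over all chromosomes. At least 2 replicates overlapped 374 peaks (19.9%, 18.1 to 21.7%), beside a background of 18.4%, and all 3 overlapped 166 (8.81%, 7.57 to 10.2%), beside 8.51%. The remaining 978 peaks, 51.9% (49.6 to 54.2%), had no counterpart in any replicate. Leaving out replicate 1 lowered the share in at least 2 replicates from 19.9 to 9.61%, and leaving out replicate 2 lowered it to 11.8%, in part because both remaining lists must then hold the peak.

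Taken by replicate, the share of chromosome II peaks overlapped was 38.8% in replicate 1, 22.7% in replicate 2 and 15.2% in replicate 3. On the other chromosomes it was 38, 20.6 and 14.1%. The difference was positive in 3 of 3 replicates, at 1.36 ± 0.68 percentage points (SD, n = 3; exact two-sided sign-flip permutation test, p = 0.25, adjusted p = 0.33). Among the better-ranked 50% of each list it was positive in 2 of 3 replicates, at 0.69 ± 2.00 points, and negative in replicate 3 (same exact test, p = 0.75). These overlaps are not independent evidence, since it is not known whether the series-level list was built from the same reads.

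Support followed rank. All 22 chromosome II peaks within the best 1% of all peaks were called in 3 replicates, and their median width was 2637.5 bp. Of the 62 peaks between 1 and 5%, 53 were called in all 3 and 9 in 2. On the other 5 chromosomes, 98 of 102 peaks within the best 1% were called in all 3. Between 1 and 5% it was 377 of 434 there. Between 10 and 25%, 58.4% of the 310 peaks of chromosome II were called in at least 2 replicates, and between 25 and 50% the share was 4.64% of 474. Elsewhere these shares were 50.4 and 4.30%. In the last class, 75 to 100%, 430 of 454 peaks (94.7%) were found in no replicate, against 91.1% elsewhere. The median width of this class on chromosome II was 170.5 bp. Width followed support, with a median of 816 bp for peaks in all 3 replicates, 581 bp for 2, 383 bp for 1 and 210 bp for none.

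**Figure D3:**
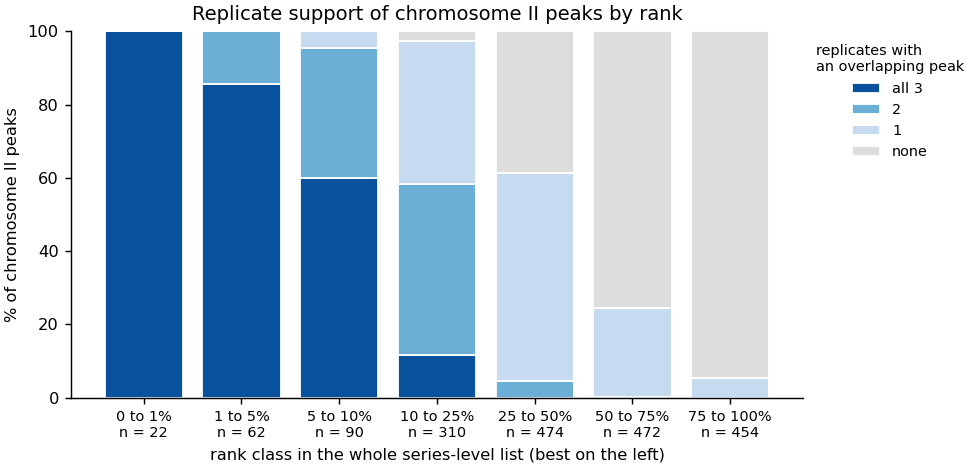
Share of chromosome II peaks overlapped by 3, 2, 1 or no replicates, by rank class in the whole series-level list, with the number of peaks under each bar. The 22 best-ranked peaks are called in all 3 replicates, and 430 of the 454 peaks of the last class in none.

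The 9 strong peaks that were missing from a replicate were missing from replicate 2 (3 peaks) or replicate 3 (6 peaks). Replicate 1, the longest list with 5320 peaks, held all 84. By the counts in all 3 replicates given above, such absences were about as common on the other 5 chromosomes. The best-ranked of the 9, from 9936487 to 9938019, ranked 206 in the series-level list, 186 in replicate 1 and 653 in replicate 3, and overlapped no peak of replicate 2. The peak from 9500629 to 9501520 was likewise absent from replicate 2 although it ranked 107 in replicate 3. Conversely, the peak from 5201072 to 5202380 ranked 90 in replicate 1 and was absent from replicate 3. These sites were chosen after their values were seen.

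Between replicates, peaks of chromosome II were found again at similar rates to those elsewhere. Of the peaks of replicate 3 on this chromosome, 74.8% (95% interval 69.6 to 79.5%) overlapped replicate 1 and 61.2% (55.6 to 66.6%) overlapped replicate 2, against 76.4 and 65% on the other chromosomes. Replicate 2 was found in replicate 1 for 69% (64.5 to 73.2%) of its peaks and in replicate 3 for 40.7% (36.2 to 45.4%). On the other chromosomes these values were 68.5 and 44.5%. Peaks of replicate 1 overlapped replicate 2 for 39% (35.6 to 42.4%), against 35.5% elsewhere, and replicate 3 for 28.7% (25.6 to 32%), against 27%. Only the interval of replicate 1 in replicate 2 leaves out the value elsewhere, and these intervals treat neighbouring peaks as independent. Merging overlapping peaks of the 3 lists gave 1004 regions on chromosome II, of which 377 (37.5%, 34.5 to 40.6%) held peaks of at least 2 replicates and 164 held peaks of all 3. The share with at least 2 replicates was close to the 35.5% on the other chromosomes. Per Mb there were 24.7 such regions on chromosome II and 22.6 elsewhere. Those 377 regions had a median width of 622 bp, and each overlapped a series-level peak. Their number was 183 without replicate 1 and 227 without replicate 2. Regions of replicate 1 alone numbered 439, those of replicate 2 alone 126 and those of replicate 3 alone 62.

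Where a single peak of one replicate overlapped a single peak of another, their midpoints were compared. The overlap that defined these pairs limits the distance, so a short distance is no separate evidence of agreement. The midpoints of such pairs lay a median of 78.8 bp apart for replicates 1 and 2 (284 pairs), 66 bp for 1 and 3 (211 pairs) and 76 bp for 2 and 3 (171 pairs). On the other chromosomes the medians were 75.5, 72 and 73.5 bp in the same order. The ranks of the paired peaks had a Spearman's rho of 0.46, 0.55 and 0.57, against 0.45, 0.53 and 0.50 elsewhere, given as a description. That the distances were smaller than the median peak width in each replicate follows in part from the pairing.

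The 10 strongest sites of chromosome II were all called in 3 of 3 replicates. The significance values given for them are the authors' own, and ranks were taken from these values within each list. A site may be split into several peaks in a replicate, so the best rank among those peaks is given. The first and second adjoin each other and are described with the strong pairs below.

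The third site, from 9616848 to 9622312 (5465 bp, significance value 3.63e-149), ranked 9 in the series-level list and 27, 14 and 31 in replicates 1, 2 and 3. Each replicate divided it into 3 peaks, which covered 86.6, 87.8 and 73.3% of it. In every replicate the best of the 3 peaks was the leftmost, starting between 9616746 and 9616945. Site 4, from 6344426 to 6349137 (4712 bp, 6.61e-133), ranked 14 in the series-level list and 11, 11 and 16 in the replicates. It was the best chromosome II peak of replicate 1, where a single peak of 3906 bp filled most of it. Site 5, from 9282665 to 9286017 (3353 bp), ranked 17 in the series-level list and 12, 29 and 22 in the replicates. It was 1 peak in replicate 1 and was divided in replicates 2 and 3, whose larger parts were 2337 and 1836 bp wide.

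Site 6, from 11633983 to 11637926 (3944 bp), ranked 19 in the series-level list, 21 in replicate 1 and 14 in replicate 3, but 101 in replicate 2. Replicate 2 broke it into 3 peaks of at most 1150 bp that covered 61.4% of it, against a single peak covering 96.7% in replicate 1. Site 7, from 6887441 to 6892129 (4689 bp), ranked 23 in the series-level list and only 188, 42 and 106 in the replicates, which held 4, 3 and 2 peaks there. Site 8, from 6835475 to 6838076 (2602 bp), had the widest range of replicate ranks among the 10, at 19, 252 and 43, beside 34 in the series-level list. The last of the 10, from 5336385 to 5339021 (2637 bp), ranked 56 in the series-level list and 103, 203 and 64.

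Site 9 was the most compact of the 10. It ran from 5543311 to 5544515, 1205 bp, with a significance value of 8.25e-81 and rank 44. Each replicate had 1 peak there, of 1118, 1012 and 1093 bp, and these peaks ranked 30, 37 and 18 in their own lists. The peaks of the 3 replicates started between 5543311 and 5543365 and ended between 5544376 and 5544441. The other 9 sites were at least 2602 bp wide in the series-level list. Wider peaks ranked better in every list, with a Spearman's rho of width and rank on chromosome II of -0.66, -0.59 and -0.59 in replicates 1, 2 and 3, so rank was not separate from width.

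**Figure D4:**
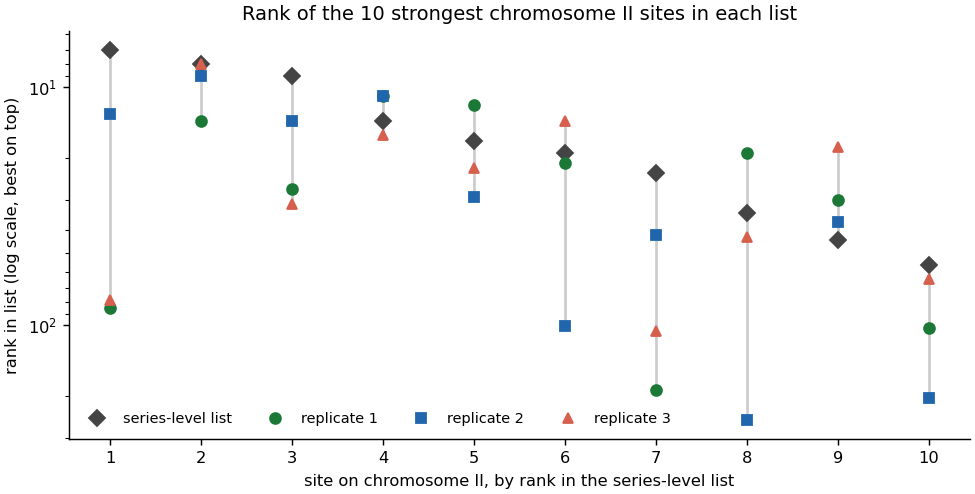
For the 10 strongest chromosome II sites, the rank of the series-level peak and of the best peak of each replicate that overlaps it, on a log axis with the best ranks on top. Sites 2, 3, 4, 5 and 9 stay within rank 44 in all 4 lists, replicates 1 and 2 coincide at rank 11 for site 4, and site 8 falls to rank 252 in replicate 2.

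Pairs of strong peaks separated by at most 2 kb numbered 10 on chromosome II and 74 in the genome. They involved 18 of the 84 strong peaks on chromosome II (21.4%) and 135 of all 620 strong peaks (21.8%), which are nearly the same share. The gaps within the 10 pairs ranged from 244 to 1252 bp, with a median of 743 bp. In no replicate did a single peak span the gap of any of these pairs, so each was also resolved in the replicate lists or lacked a member there. Both members were called in all 3 replicates in 8 of the pairs. The other 2 pairs, from 9933692 to 9938019 and from 10445069 to 10450728, had a right-hand member without a peak in replicate 2.

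The strongest pair consists of the first and second sites of the chromosome. The left peak, from 10541854 to 10547008 (5155 bp, 4.69e-152), ranked 8 in the series-level list and 14, 9 and 8 in replicates 1, 2 and 3. It was the best chromosome II peak of replicates 2 and 3. The right peak, from 10547598 to 10554892 (7295 bp, 8.11e-160), ranked 7 in the series-level list and 85, 13 and 79. The gap between them was 589 bp. The replicates divided the right peak differently, into 5, 2 and 4 peaks for replicates 1, 2 and 3. In replicate 2 a single peak of 4620 bp, from 10550126 to 10554745, carried rank 13, while the widest part in replicates 1 and 3 was 1916 and 2038 bp. The part nearest the gap was common to all, with a peak of 1916, 1923 and 2038 bp that ended between 10549520 and 10549744.

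That pair was part of a chain. Another strong peak followed after 295 bp, from 10555188 to 10557444 (rank 174), and a further one after 897 bp more, from 10558342 to 10560067 (rank 411). All 4 were called in all 3 replicates. Among the remaining pairs, site 5 had a left neighbour at 282 bp, from 9279937 to 9282382, which ranked 111 and, in the replicates, 317, 685 and 520. The closest pair, from 5911167 to 5912540 and from 5912785 to 5914571, was 244 bp apart and ranked 109 and 194. Its left peak ranked 131, 61 and 86 in replicates 1, 2 and 3, and its right peak 138, 1130 and 865, so the members were of similar rank in replicate 1 only. The pair farthest to the left, from 2973858 to 2974258 and from 2975383 to 2977946, supplied 2 of the 5 strong peaks of the left outer 25%, and its left peak was only 401 bp wide.

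Runs made by joining series-level peaks no more than 2 kb apart, and at least 10 kb long, numbered 8 on chromosome II of 69 in the genome. That is 0.524 per Mb, against 0.431 on chromosome V, the lowest, and 1.09 on chromosome III, the highest. The 8 runs held 83 peaks (4.41% of the chromosome's peaks) in 0.817% of its span. Of these 83 peaks, 33.7% were called in at least 2 replicates, against 19.2% of the 1801 peaks outside runs. Strong peaks numbered 15 of the 83 and 69 of the 1801. Runs were kept by length, which favours wide peaks, and the median width was 605 bp in runs and 328 bp outside. Since wider peaks also ranked better, both contrasts follow in part from the rule. The replicates themselves held 2, 1 and 1 runs of this length on the chromosome for replicates 1, 2 and 3.

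The runs were of different kinds. The longest, from 9108438 to 9132696 (24.3 kb), was a string of 21 peaks with a median width of 452 bp, against 328 bp for peaks outside runs. Peaks covered 57% of it in the series-level list but 26.1, 13.6 and 3.64% in replicates 1, 2 and 3. Only its peak from 9112162 to 9114570 (rank 134) was called in all 3 replicates, and 10 of the 21 were called in none. The second, from 5319517 to 5341234 (21.7 kb), held 16 peaks, of which 6 were strong and the same number were called in all 3 replicates. It contained site 10 and pairs of strong peaks at both its ends, and peaks covered 42.4, 26.5 and 23.8% of it in the replicates.

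The third run, from 10541854 to 10560067 (18.2 kb), was the chain of 4 strong peaks that begins with the strongest pair. Peaks covered 90.2% of it in the series-level list and 64.5, 77.9 and 57.7% in replicates 1, 2 and 3, the highest replicate coverage of the 8 runs. The fourth, from 15202712 to 15216001 (13.3 kb), lay near the right end of the chromosome and had the weakest support. Its 10 peaks included 0 strong ones, the best ranked 2888, and 0 were called in at least 2 replicates. Replicate 3 had 0 peaks in it, replicate 2 had 3 and replicate 1 had 1, which ranked 489. The fifth, from 3950812 to 3963896 (13.1 kb), held 10 peaks, of which 2 were called in all 3 replicates and 6 in none. Its best peak ranked 84 in the series-level list and 36, 83 and 98 in the replicates.

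**Figure D5:**
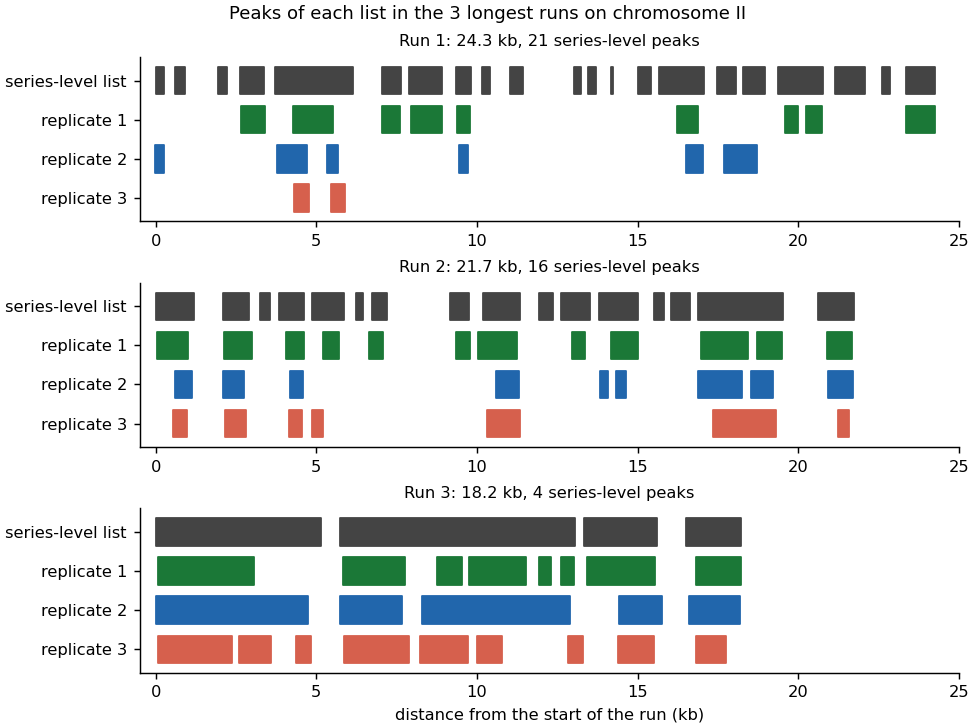
Peaks of the series-level list and of each replicate (bars, to scale) in the 3 longest runs on chromosome II, with the distance from the start of the run in kb. Of the 3 runs, run 3 is covered most in every list, with 57.7 to 77.9% covered in the replicates. By contrast, replicate 3 has 2 peaks in the 24.3 kb of run 1.

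Outside clusters the chromosome held long empty stretches. Of the 1884 series-level peaks, 737 had no neighbour within 2 kb, and the median gap between neighbours was 3044 bp. The longest stretch without a series-level peak ran from 915604 to 1028020 (112.4 kb), and the replicates had 0 peaks in it as well. The next, from 3109241 to 3209258 (100.0 kb), contained 1 peak of replicate 1. Both lie in the sparse left part of the chromosome.

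The best series-level peaks without any replicate support ranked 2008, 2034 and 2252, and all better-ranked peaks of this chromosome had support in at least 1 replicate. They ran from 11154994 to 11155776, from 9891078 to 9892101 and from 8989597 to 8990530. Each had another series-level peak close by, at 317, 277 and 383 bp. Such closeness was not particular to them. Of chromosome II peaks of at least 20 bp, 24.9% had a neighbour within 500 bp. Among those of at least 1000 bp the share was 50.4%. In the other direction, 56 (6.85%), 11 (2.37%) and 8 (2.52%) of the chromosome II peaks of replicates 1, 2 and 3 overlapped no series-level peak. The best of these in each list were from 5356405 to 5356874 in replicate 1 (rank 1825), from 2893697 to 2894017 in replicate 2 (rank 1262) and from 15102064 to 15102147 in replicate 3 (rank 1165). None of the 3 was called in another replicate. Shares of replicate peaks outside the series-level list are not given here for the other chromosomes, so these counts only describe chromosome II. Among peaks called in a single replicate, the best were from 8485540 to 8486373 in replicate 1 (rank 310), from 3911185 to 3911654 in replicate 2 (rank 341) and from 6933065 to 6933563 in replicate 3 (rank 353). Each overlapped a series-level peak, of rank 2411, 1895 and 1944 respectively, and these last sites were chosen after their values were seen.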

How the data were processed

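PeakSeq called the peaks on WormBase build WS220, per the file headers and lines. The authors deposited 1 list for each ChIP replicate and 1 series-level list, each giving a position and a significance value between 0 and 0.001 for every peak. The sources used here do not say whether this deposited value is a p-value or an adjusted q-value, and they name no aligner, filter or way of combining replicates. Read counts are not part of the lists, which leaves the depth unknown. Ranks were computed over all lines of a list, with ties given the lowest rank. The span of a chromosome ran to the last peak found there in any list, 15.3 Mb for chromosome II. Intervals of shares are exact 95% Clopper-Pearson intervals and cover counting error only. Conditions could not be compared, since the ChIP libraries form 1 group. Chromosome II was compared with the others over the 3 replicates by two-sided exact sign-flip permutation tests, with Benjamini-Hochberg adjustment over the 4 planned tests. Python 3.11.15, numpy 2.4.6, pandas 2.3.3 and scipy 1.17.1 were used, and overlaps were tested on simulated data, on which bedtools 2.31.1 gave equal counts. Sites were named by rule: the 10 best peaks, strong pairs, the 5 longest runs, the 3 best unsupported peaks, the 3 best replicate peaks outside the series-level list, the 2 densest and 2 sparsest bins and the longest empty stretch. Not every peak that the rule names is printed. The members, rules and limits were chosen with earlier results of these data known. The alternatives concerned the overlap, the span, the rank limit, the joining distance and each replicate left out. No sequence is shown, because no genome of build WS220 was used here.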

Additional observations from a re-analysis of the deposited data

How the results depend on the processing

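The mean differences between chromosome II and the other chromosomes in density, support and width, and the central excess, kept their direction under the alternatives tried, but 3 replicates cannot give a p below 0.25. For density these include chromosome I left out of the others, chosen after seeing the data. With peaks ranked in the worse 50% left out, the replicates no longer shared a sign for density (mean log2 ratio 0.052) or support (0.69 percentage points), and the exact permutation p was 0.75 for both. With 1 replicate left out, the mean log2 ratio of density ranged from 0.079 to 0.15, the difference in support from 0.98 to 1.62 percentage points, the log2 ratio of width from -0.070 to -0.013 and the central excess from 11.4 to 11.8 percentage points. The share of peaks in at least 2 replicates, 19.9%, was 13.9% with a reciprocal overlap of 50%, 15.3% with midpoints within 200 bp, 8.81% in all 3 replicates, and from 9.61 to 16% with 1 replicate left out. The 377 regions of at least 2 replicates became 164 when all 3 were required and 184 in the better-ranked 50% of each list, and ranged from 183 to 305 with 1 replicate left out. These falls follow in part from stricter rules and shorter lists. The 10 strong pairs became 5 within the best 2% of the list. The 8 long runs became 3 when peaks were joined within 1 kb, 76 within 5 kb and 4 in the better-ranked 50%, so their number depends on the joining distance. No paired analysis was possible because the input libraries, which share replicate numbers with the ChIP libraries, were not analysed here. The sign-flip tests pair chromosomes within a replicate list. Unknown depth limits every comparison of list sizes.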

Other observations

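A site on chromosome II from 3994527 to 3994976 had nearly the same edges in every replicate. Its peaks were 448, 446 and 447 bp wide in replicates 1, 2 and 3, and their starts and their ends differed by at most 1 bp. They ranked 786, 791 and 535 in the replicates, yet the series-level peak of 450 bp ranked only 7160, the worst rank of the 166 peaks called in all 3 replicates. Of 160 sites on the chromosome where each replicate had a single overlapping peak, this was the only one with both edges within 5 bp. For the 160 sites together the median range of the starts was 133.5 bp and that of the ends 162.5 bp. The same was seen at 1 site each on chromosomes I, III and X and at 0 on IV and V.

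The last 100 kb of the span, from 15172703 to 15272702, contained 33 series-level peaks, of which 4 were called in at least 2 replicates, 15 in 1 and 14 in none. The first 100 kb contained 12, of which 0 were called in at least 2 replicates, 6 in 1 and 6 in none. The peaks called there came from replicate 1, the longest list, which had 6, while replicates 2 and 3 had 0. Over the whole chromosome, 19.9% of peaks were called in at least 2 replicates and 51.9% in none. With so few peaks at each end, the counts are only a description.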
